A study of Mus musculus with 12 samples.

Results

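Granzymes are serine proteases that cytotoxic lymphocytes store in secretory granules, and perforin is the pore-forming protein released with them. The genes described here are the 9 rows of the deposited table whose gene symbol is Gzma, Gzmb, Gzmc, Gzmd, Gzme, Gzmf, Gzmk, Gzmm or Prf1, of 55487 features in all. They were chosen by name, and all 9 passed the filter on low values that left 12364 genes for testing.

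On contact with a target cell the granules fuse with the plasma membrane, perforin opens a path into the target and granzymes cleave proteins there. Granzyme B cuts after aspartate and starts the caspase cascade, granzymes A and K cut after basic residues, and granzyme M prefers methionine or leucine. In rodents several further granzyme genes, Gzmc to Gzmg and Gzmn, lie beside Gzmb. Mouse natural killer (NK) cells are known to hold Gzmb and Prf1 transcripts before activation, and interleukin 15 (IL-15) is known to raise the proteins.

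RNA was sequenced from mouse NK cells of strain B6.129S4-Ifngtm3.1Lky/J with the genotype given as mut/mut, in which Ifng, the interferon gamma gene, carries a reporter for yellow fluorescent protein (YFP). All 12 samples were of this genotype and, per the series title, primed with IL-15. Their titles give the priming as "HD IL-15", and HD is not spelled out in the sources used here. There were 3 groups of 4 samples: cells without stimulation, and cells that had antibody against the receptor NK1.1 for 6 h and were sorted as negative (YFP-) or positive (YFP+) for the reporter. No ages are given in the sources used here, no unprimed group was analysed here, and both YFP- and YFP+ cells had the antibody. How much of it the cells of each group bound was not measured here. Each group has samples labelled f2, m2, m3 and m4, and the labels do not say whether same-labelled samples came from 1 mouse, so p-values measure the spread between these samples.

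Library totals ran from 32.1 to 54.2 M reads, so that 3 reads, the lowest level taken as detectable, stood for 0.0553 to 0.0933 CPM, reads of a gene scaled to a common library total. Mean Ifng levels followed the sort labels, with 3.92 ± 0.24 CPM (SD, n = 4) without stimulation, 45.8 ± 7.37 CPM for YFP- and 329 ± 18.2 CPM for YFP+ cells. All 10 NK markers listed were tested, and their summed level was 6628 to 7467 CPM without stimulation, 5115 to 6542 CPM for YFP- and 5555 to 6204 CPM for YFP+ cells. Among them Klrb1c, which encodes NK1.1, stood at 290 to 327 CPM, at 57.6 to 86.6 CPM and at 3.70 to 8.97 CPM in these groups, and Eomes at 102 to 115 CPM, at 57.5 to 84.3 CPM and at 38.3 to 43.0 CPM. The ranges of Ncr1, Klrd1, Tyrobp, Fcer1g and Itga2 also shifted down in both stimulated groups. Other markers did not fall in this way. Klrk1 stood at 183 to 195, 236 to 322 and 210 to 274 CPM, and Il2rb at 907 to 1191, 1231 to 2071 and 461 to 1695 CPM. Nkg7 stood at 2262 to 2714, 1567 to 1983 and 2620 to 3228 CPM. The part of these marker differences in those below was not tested. B cell and myeloid markers summed to at most 4.19 and 3.10 CPM. Ribosomal-RNA-like features took 12.0 to 15.2% of the reads of unstimulated libraries, against 7.15 to 17.8% for YFP- and 5.13 to 15.5% for YFP+ cells. Differences below are in log2 CPM, and a gene was called changed where the Benjamini-Hochberg adjusted p of limma, a linear model fitted across all genes, was under 0.05. In bulk RNA, fewer cells of a type and less RNA per cell cannot be told apart.

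Per kilobase of exon, Gzma led the family in unstimulated cells and Gzmb led it after stimulation. Gzmb rose in both stimulated groups and was higher in YFP+ than in YFP- cells. Its neighbours Gzmc, Gzme and Gzmf rose in both stimulated groups and Gzmd in YFP+ cells, whereas Gzma and Gzmk fell in both. In the fit as reported, Gzmm was higher in YFP- cells than in either other group, and Prf1 passed the test in no comparison. The Gzmm call between YFP+ and YFP- cells was kept in 6 of 19 alternative settings.

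In YFP- over unstimulated samples 7 of the 9 genes were called, 5 higher and 2 lower, beside 51.1% of all genes tested (30.2% higher, 20.9% lower). In YFP+ over unstimulated samples 7 were called, again 5 higher and 2 lower, beside 60.8% of all genes (27.5% higher, 33.3% lower). In YFP+ over YFP- samples 3 were called, 2 higher and 1 lower, beside 21.8% of all genes (3.28% higher, 18.5% lower). The median difference of the 9 genes was 0.89, 1.18 and 0.24 in these comparisons, beside 0.14, -0.03 and -0.19 over all genes. The first and second comparisons share their unstimulated samples. With each sample centred on its median, the all-gene median of YFP+ over YFP- moved from -0.19 to 0.07 and the calls from 405 higher and 2286 lower to 1505 higher and 1491 lower, so differences in this comparison are read against that shift. Without any filter, in a fit that also held features without a read, the calls were 4, 7 and 0, and with only the features without a read left out they were 7, 7 and 1.

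**Figure D1:**
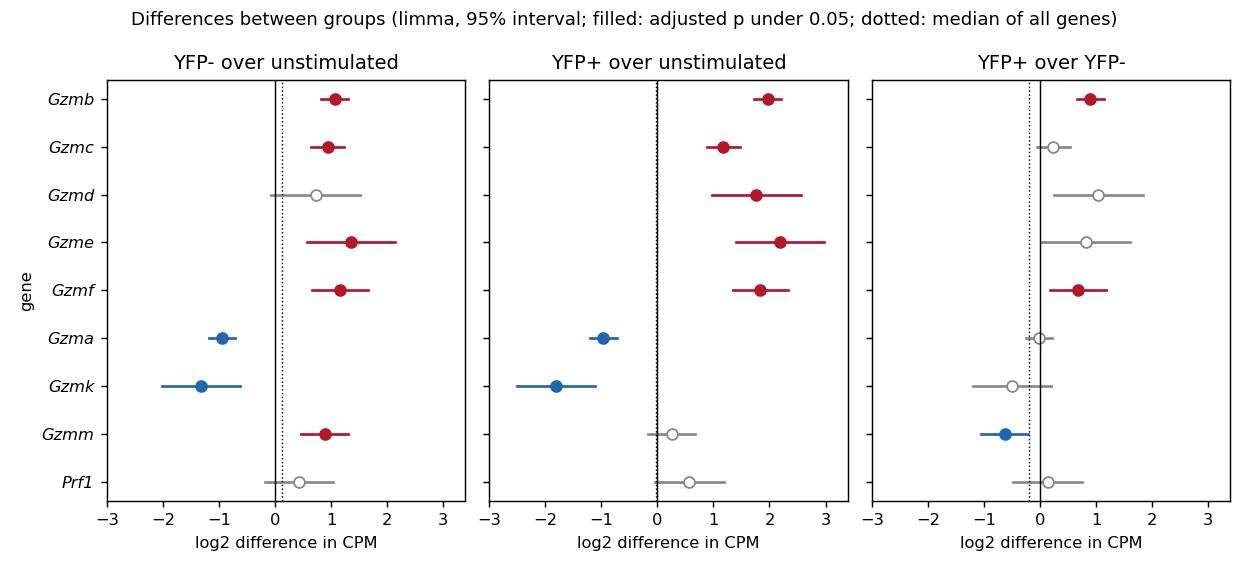
Log2 difference in CPM (x axis) of each gene (y axis) in the 3 comparisons, with the 95% interval of limma. Filled points passed an adjusted p under 0.05, red higher and blue lower, and the dotted line is the median of all 12364 genes. Gzmb, Gzmc, Gzmd, Gzme and Gzmf lie to the right of 0 in every panel, and Gzma and Gzmk lie to the left in the comparisons with unstimulated samples.

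Gzmb (ENSMUSG00000015437; GRCm38 chromosome 14, 56258838 to 56262260, minus strand) encodes granzyme B. Unstimulated samples f2, m2, m3 and m4 held 6693, 6308, 6540.3 and 5121 CPM. YFP- samples in the same order held 13688, 13127, 11558 and 13024 CPM, and YFP+ samples held 28337, 23468, 21073 and 23473 CPM. The 3 groups did not overlap: every YFP- sample lay above every unstimulated one, and every YFP+ sample above every YFP- one. In log2 CPM, Gzmb was 1.06 ± 0.11 (SE) higher in YFP- than in unstimulated samples (limma adjusted p = 5.2e-06), a 2.09-fold difference. YFP+ samples exceeded unstimulated ones by 1.97 ± 0.11 (limma adjusted p = 9.6e-09), or 3.91-fold. YFP+ samples exceeded YFP- samples by 0.90 ± 0.11 (limma adjusted p = 9.9e-05), or 1.87-fold, and did so for all 4 labels. Gzmb took 0.512 to 0.669% of all reads without stimulation, against 1.16 to 1.37% for YFP- and 2.11 to 2.83% for YFP+ libraries. Without any filter its adjusted p was 0.298 for YFP- over unstimulated and 0.600 for YFP+ over YFP- samples. No window of 50 bases of its transcript occurs in another gene's transcripts.

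Gzma (ENSMUSG00000023132; GRCm38 chromosome 13, 113093825 to 113100981, minus strand), encoding granzyme A, was the most abundant member before stimulation. Unstimulated samples f2, m2, m3 and m4 held 9203, 9334, 8034 and 7843 CPM. YFP- samples held 5124, 4712, 4325 and 3769 CPM, and YFP+ samples 4773, 4587, 4414 and 3875 CPM. All 8 stimulated samples lay below all 4 unstimulated ones, and the stimulated groups overlapped. Gzma was lower by a log2 of -0.95 ± 0.11 (SE) in YFP- (limma adjusted p = 1.3e-05) and of -0.96 ± 0.11 in YFP+ samples (limma adjusted p = 5.0e-06), that is 1.93-fold and 1.95-fold lower. Without any filter the adjusted p of the first difference was 0.0570. Between YFP+ and YFP- the difference was -0.02 (95% interval -0.25 to 0.22, limma adjusted p = 0.92), and it turned to 0.24 with median centring and to 0.13 with trimmed-mean scaling, without passing the test.

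**Figure D2:**
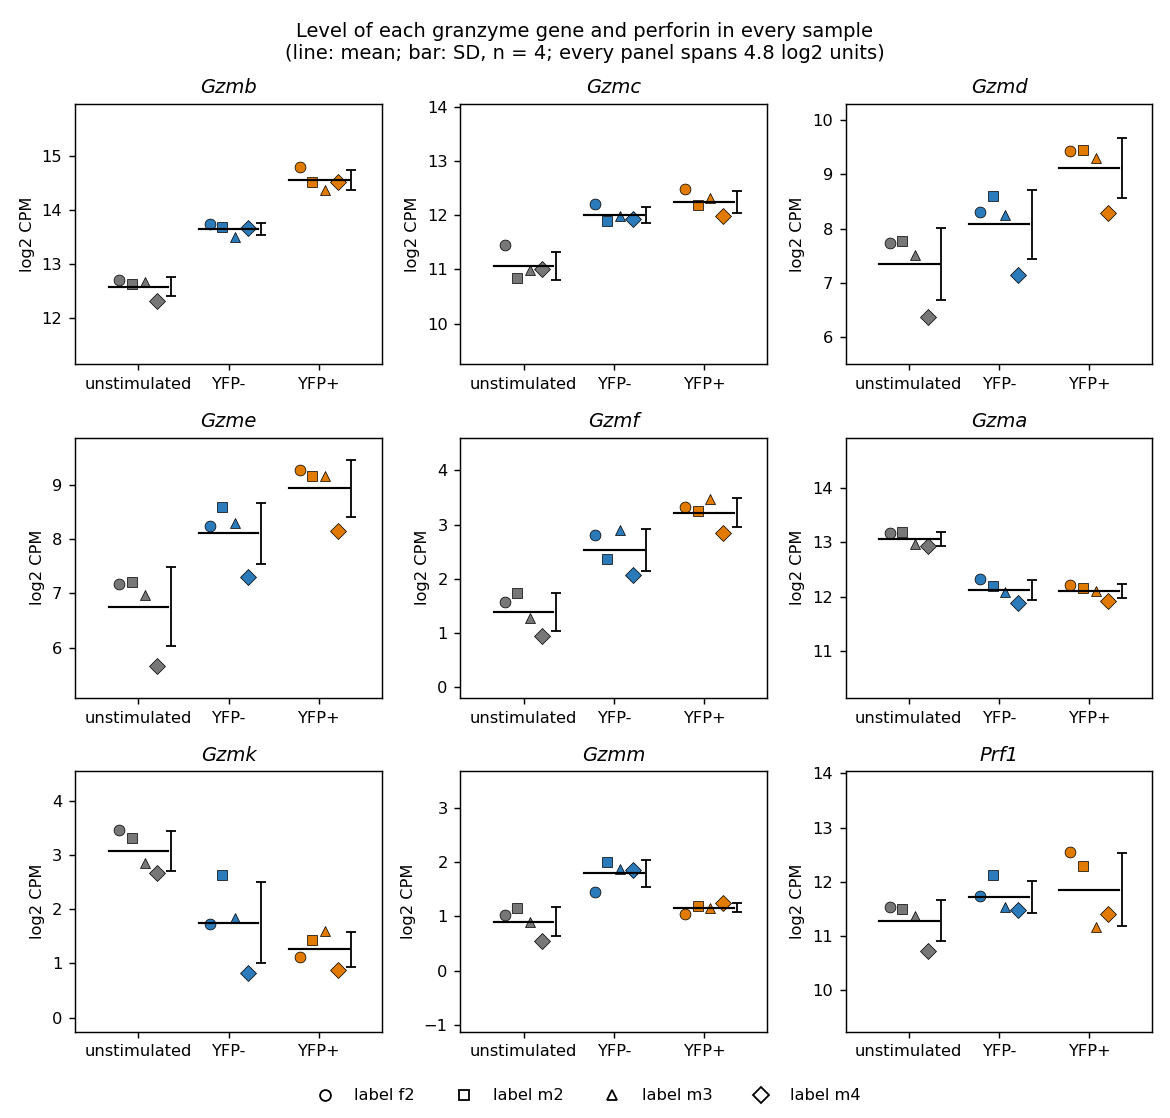
Log2 CPM (y axis) of each gene in the 4 samples of each group (x axis), with marker shapes for the labels f2, m2, m3 and m4, the mean as a line and the SD as a bar (n = 4). Gzmb steps up from group to group without overlap, Gzma steps down after stimulation, and m4 is the lowest sample of Gzmd and Gzme in every group.

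The upstream sequences of these genes show how alike the members beside Gzmb are, and how they differ from Gzmb and Gzma. The 200 bases before each RefSeq start (GRCm38.p6) are written 5′ to 3′ on the gene's strand. Capitals mark matches, on either strand, to the Runx letters TGTGGT, the cAMP response element (CRE) letters TGACGTCA, the AP-1 letters TGANTCA or the NFAT letters TGGAAA. They lie at chr14:56262335-56262534 (Gzmb), chr14:56234658-56234857 (Gzmc), chr14:56132594-56132793 (Gzmd), chr14:56120626-56120825 (Gzme), chr14:56211408-56211607 (Gzmf) and chr13:113100982-113101181 (Gzma), all on the minus strand.
Gzmb: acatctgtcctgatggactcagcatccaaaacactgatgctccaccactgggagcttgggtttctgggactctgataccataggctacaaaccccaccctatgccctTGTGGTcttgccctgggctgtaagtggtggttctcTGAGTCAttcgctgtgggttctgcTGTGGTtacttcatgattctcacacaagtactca
Gzmc: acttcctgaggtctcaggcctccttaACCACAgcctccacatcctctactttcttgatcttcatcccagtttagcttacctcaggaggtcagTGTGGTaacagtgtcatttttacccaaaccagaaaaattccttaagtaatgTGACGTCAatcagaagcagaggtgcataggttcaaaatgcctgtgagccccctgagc
Gzmd: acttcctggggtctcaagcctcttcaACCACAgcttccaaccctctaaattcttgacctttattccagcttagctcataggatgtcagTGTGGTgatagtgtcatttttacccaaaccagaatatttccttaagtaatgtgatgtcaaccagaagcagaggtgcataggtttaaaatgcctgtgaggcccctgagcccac
Gzme: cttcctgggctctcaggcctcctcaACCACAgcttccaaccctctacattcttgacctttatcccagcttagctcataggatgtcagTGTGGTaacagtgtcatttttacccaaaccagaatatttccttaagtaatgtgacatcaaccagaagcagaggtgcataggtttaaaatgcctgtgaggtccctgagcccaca
Gzmf: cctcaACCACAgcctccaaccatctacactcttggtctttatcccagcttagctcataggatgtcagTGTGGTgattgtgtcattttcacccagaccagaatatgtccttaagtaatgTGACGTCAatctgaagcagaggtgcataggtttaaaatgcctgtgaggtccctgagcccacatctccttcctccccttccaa
Gzma: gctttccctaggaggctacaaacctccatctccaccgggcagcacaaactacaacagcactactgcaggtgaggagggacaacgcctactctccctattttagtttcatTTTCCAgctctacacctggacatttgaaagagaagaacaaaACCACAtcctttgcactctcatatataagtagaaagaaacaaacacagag

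Over 250 upstream bases, Gzmc, Gzmd, Gzme and Gzmf were 70.2 to 94.8% identical in their 6 pairs, with Gzmd and Gzme the most alike. The 26 pairs that include Gzmb, Gzma, Gzmk or Prf1, with Gzmg also compared, were 42.3 to 48.3% identical. Counting back from -1, the base before the start, the 4 similar genes each hold a Runx match on the gene's strand (first base -108 in Gzmc, -112 in Gzmd, -113 in Gzme and -133 in Gzmf) and a second on the other strand 62 bases (66 in Gzmc) further upstream. A CRE match begins 51 bases after the nearer Runx match in Gzmc and Gzmf. At the same distance Gzmd holds TGATGTCA, which is C4T, and Gzme holds TGACATCA, which is G5A, with positions counted from 1 at the 5′ end of TGACGTCA. Gzmb holds 2 Runx matches (-93 and -34) and an AP-1 match (-58), and Gzma holds 1 Runx (-50) and 1 NFAT match (-91). The T-box letters GGTGTGA, the STAT letters TTCNNNGAA and the TATA letters TATAAA were also searched, and no stretch printed above holds a match. Gzmb holds a STAT match after its RefSeq start. Among all 32851 RefSeq windows of 300 bases, 16.8% hold the Runx letters, 1.79% the CRE, 7.81% the AP-1 and 21.4% the NFAT letters. The T-box, STAT and TATA letters are held by 3.98, 8.30 and 13.6%. A match is a description of letters, and the NFAT and Runx letters are short. The GENCODE start of Gzmb lies 74 bases downstream of the RefSeq start used here. For Gzmk, which is among the pairs compared, this distance is -44943 bases, so its GENCODE start lies far upstream of the RefSeq start.

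Gzmc (ENSMUSG00000079186; chromosome 14, 56231441 to 56234656, minus strand) lies next to Gzmb and encodes granzyme C, a protease of the same expanded rodent group. Unstimulated samples f2, m2, m3 and m4 held 2782, 1824, 2021 and 2043 CPM, YFP- samples 4728, 3798, 4045 and 3893 CPM, and YFP+ samples 5694, 4679, 5105 and 4046 CPM. The stimulated samples all lay above the unstimulated ones, and the stimulated groups overlapped. Gzmc rose by 0.94 ± 0.14 in log2 CPM (SE) in YFP- (limma adjusted p = 9.8e-05) and by 1.18 ± 0.14 in YFP+ samples (limma adjusted p = 6.9e-06). The difference of YFP+ over YFP- was 0.24 (95% interval -0.06 to 0.54, limma adjusted p = 0.24), and with median centring it was 0.50 and passed (limma adjusted p = 0.038).

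Gzmd (ENSMUSG00000059256; chromosome 14, 56129556 to 56132608, minus strand) and Gzme (ENSMUSG00000022156; chromosome 14, 56117626 to 56120625, minus strand) encode granzymes D and E, and their transcripts are 90.0% identical over 964 aligned bases. Gzmd stood at 214, 219, 184 and 82.4 CPM in unstimulated samples f2, m2, m3 and m4, at 316, 388, 306 and 142 CPM in YFP- samples, and at 694, 697, 632 and 312 CPM in YFP+ samples. Gzme stood at 144, 147, 126 and 50.8 CPM, at 303, 387, 313 and 158 CPM, and at 620, 576, 570 and 284 CPM in the same order. The m4 sample was the lowest of its group for both genes in all 3 groups, which widens their spread. Gzmd did not differ past the test between YFP- and unstimulated samples (0.73 ± 0.37, limma adjusted p = 0.12) and rose by 1.77 ± 0.37 in YFP+ over unstimulated samples (limma adjusted p = 0.00091). Gzme rose by 1.35 ± 0.36 in YFP- (limma adjusted p = 0.0071) and by 2.18 ± 0.36 in YFP+ samples (limma adjusted p = 0.00015), or 4.54-fold. Without any filter the adjusted p of the former was 0.0850.

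Between YFP+ and YFP- samples Gzmd differed by 1.04 (95% interval 0.24 to 1.84) and Gzme by 0.83 (0.04 to 1.61), and neither passed the test (limma adjusted p = 0.061 and 0.13). Both were higher in YFP+ for all 4 labels, by 0.84 to 1.13 for Gzmd and by 0.57 to 1.03 for Gzme. With the 3 m4 samples left out, the differences were 1.01 for Gzmd (limma adjusted p = 0.0013) and 0.82 for Gzme (limma adjusted p = 0.0036), and Gzmd also passed in YFP- over unstimulated samples (0.71, limma adjusted p = 0.0025). Without f2, m2 or m3 neither gene passed between YFP+ and YFP- samples. With median centring both passed: Gzmd differed by 1.30 (limma adjusted p = 0.014) and Gzme by 1.09 (limma adjusted p = 0.031). Both also passed with the replicate label as a block, though same-labelled samples are not known to be paired.

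Gzmf (ENSMUSG00000015441; chromosome 14, 56205263 to 56211417, minus strand), encoding granzyme F, was read far less. Its levels were 2.96, 3.34, 2.41 and 1.91 CPM in unstimulated samples f2, m2, m3 and m4, 6.997, 5.15, 7.49 and 4.20 CPM in YFP- samples, and 9.99, 9.53, 11.0 and 7.19 CPM in YFP+ samples, from 62 to 517 reads. The unstimulated samples lay below all others, and the highest YFP- sample lay above the lowest YFP+ one. Gzmf rose by 1.15 ± 0.23 in YFP- (limma adjusted p = 0.0010) and by 1.84 ± 0.23 in YFP+ samples (limma adjusted p = 1.2e-05). The YFP+ over YFP- difference of 0.68 ± 0.23 passed narrowly (limma adjusted p = 0.0499) and did not pass without f2, m2, m3 or m4 (limma adjusted p = 0.10, 0.19, 0.095 and 0.067).

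Reads can be shared among these genes. Of the 50-base windows of their transcripts, 21.9% in Gzmd, 20.6% in Gzme, 19.4% in Gzmf and 4.14% in Gzmc occur in another gene, mostly in each other or in Gzmg. Of 150-base windows, the length of 1 read, none of Gzmc, Gzmd or Gzme and 0.649% of Gzmf do. The exons of Gzmf overlap those of the antisense gene Gm4022, which held at most 13 reads in any sample. The library kit does not mark strand, so reads of Gzmf and Gm4022 cannot be told apart there. How the authors treated reads that fit several genes is not given in the sources used here, so the division of reads among Gzmd, Gzme, Gzmf and Gzmg is uncertain.

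**Figure D3:**
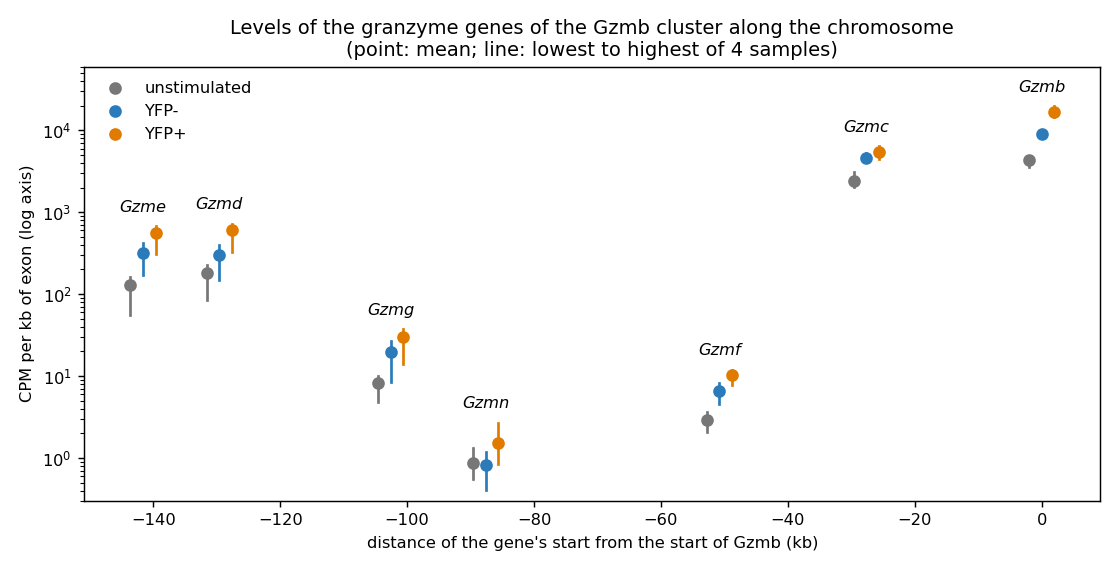
Level in CPM per kilobase of exon (y axis, log scale) of the granzyme genes beside Gzmb against the distance of each gene's start from that of Gzmb in kb (x axis), with the mean as a point and the lowest to highest of 4 samples as a line, by group. Mean levels per kilobase are highest at Gzmb and Gzmc and lowest at Gzmn, and at each gene but Gzmn they stand in the order unstimulated, YFP-, YFP+.

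The other granzyme genes of the cluster, which are no members of the list of 9, were lower. Gzmg averaged 7.51 ± 2.10 CPM (SD, n = 4) without stimulation, 17.7 ± 7.31 CPM for YFP- and 27.2 ± 9.88 CPM for YFP+ cells. It rose by 1.16 in YFP- (limma adjusted p = 0.022) and by 1.81 in YFP+ samples (limma adjusted p = 0.0011). Gzmn, at 0.408 to 2.65 CPM, was called in no comparison. Of 8 other serine protease genes further along, which are known from mast cells, basophils and neutrophils, 6 were under 1 CPM in every sample. The other two, Mcpt8 at up to 26.8 CPM and Cma1 at up to 14.5 CPM, were called in no comparison (YFP+ over unstimulated 0.26 and -0.73, limma adjusted p = 0.51 and 0.18). Of the mast cell and basophil markers, Mcpt4, Tpsb2 and Ms4a2 stayed at 0 to 0.331 CPM, and Cpa3 stood at 1.66 to 2.34 CPM without stimulation, 0.899 to 2.30 CPM for YFP- and 0.331 to 0.590 CPM for YFP+ cells. The 6 markers of this list summed to 17.8 to 38.5, 11.1 to 33.1 and 20.9 to 33.5 CPM in these groups.

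Gzmk (ENSMUSG00000042385; GRCm38 chromosome 13, 113171608 to 113225908, minus strand) encodes granzyme K and lies near Gzma. Its levels were 11.0, 9.97, 7.18 and 6.35 CPM in unstimulated samples f2, m2, m3 and m4, 3.30, 6.18, 3.57 and 1.75 CPM in YFP- samples, and 2.17, 2.67, 3.01 and 1.84 CPM in YFP+ samples. Every stimulated sample lay below every unstimulated one, on 59 to 419 reads. Gzmk was lower by a log2 of -1.32 ± 0.32 in YFP- (limma adjusted p = 0.0041) and of -1.82 ± 0.32 in YFP+ samples (limma adjusted p = 0.00026), or 2.50-fold and 3.52-fold lower. YFP+ and YFP- overlapped, with a difference of -0.50 (95% interval -1.20 to 0.20, limma adjusted p = 0.30). The 8 T cell markers listed, a cell type known for Gzmk, summed to 45.9 to 106 CPM without stimulation, 40.4 to 63.0 CPM for YFP- and 23.5 to 47.0 CPM for YFP+ cells. Of these Cd3g and Cd3d made up nearly all, and Cd4, Cd8a, Cd8b1 and Themis were at most 0.193 CPM in every sample. Cd3e stood at 0.123 to 0.816 CPM without stimulation, 0.326 to 1.49 CPM for YFP- and 0 to 0.0829 CPM for YFP+ cells. In the same order Cd5 stood at 0 to 0.126, 0.224 to 0.948 and 0.331 to 1.12 CPM. The part of T cells in the Gzmk difference was not tested. The span of Gzmk overlaps Esm1 on the other strand, without shared exons, and Esm1 held at most 14 reads.

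Gzmm (ENSMUSG00000054206; GRCm38 chromosome 10, 79689020 to 79695261, plus strand), encoding granzyme M, had the lowest mean per kilobase of the 9 genes in every group. It stood at 2.02, 2.21, 1.86 and 1.45 CPM in unstimulated samples f2, m2, m3 and m4, at 2.71, 3.99, 3.66 and 3.59 CPM in YFP- samples, and at 2.06, 2.27, 2.21 and 2.36 CPM in YFP+ samples. The YFP- samples lay above all others, while unstimulated and YFP+ samples overlapped. Gzmm rose by 0.89 ± 0.19 in YFP- over unstimulated samples (limma adjusted p = 0.0018), and the YFP+ over unstimulated difference was 0.25 (95% interval -0.16 to 0.67, limma adjusted p = 0.27). The latter passed with quantile normalization (0.60, limma adjusted p = 0.018) and with the GC and length correction (0.55, limma adjusted p = 0.024). YFP+ samples were lower than YFP- ones by a log2 of -0.63 ± 0.19 (limma adjusted p = 0.032). This call was lost without f2, m2, m3 or m4 (limma adjusted p = 0.053, 0.16, 0.13 and 0.088) and with median centring (-0.37, limma adjusted p = 0.21), with the sign kept. Of the 19 alternative settings run for Gzmm, 6 kept the call, and the largest limma adjusted p was 0.33. These levels rest on 47 to 197 reads. The summed level of the 5 markers listed for innate lymphoid cells of types ILC1 and ILC2 was also highest in YFP- samples, at 86.4 to 111 CPM without stimulation, 155 to 227 CPM for YFP- and 39.4 to 115 CPM for YFP+ cells. Among them Cxcr6 stood at 44.3 to 62.1, 101 to 135 and 19.3 to 58.0 CPM, and Cd200r1 at 3.66 to 7.82, 12.3 to 23.9 and 0.746 to 5.13 CPM. Gata3 overlapped between groups, at 34.9 to 41.9, 40.2 to 73.3 and 17.8 to 51.0 CPM. Il7r in YFP- samples (1.08 to 1.69 CPM) lay within its unstimulated range (0.753 to 2.47 CPM), and was at most 0.166 CPM in YFP+ samples. Il1rl1 was highest in YFP+ samples, at 0 to 0.185, 0.158 to 0.507 and 0.871 to 1.88 CPM. The part of such cells in the Gzmm difference was not tested.

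Prf1 (ENSMUSG00000037202; GRCm38 chromosome 10, 61297833 to 61304680, plus strand) encodes perforin. Unstimulated samples f2, m2, m3 and m4 held 2976, 2917, 2647 and 1696 CPM, YFP- samples 3401, 4474, 2974 and 2847 CPM, and YFP+ samples 5986, 5030.2, 2289 and 2733 CPM. The groups overlapped in every comparison: f2 and m2 were the highest and m3 and m4 the lowest YFP+ samples. The differences were 0.43 in YFP- over unstimulated (95% interval -0.18 to 1.04, limma adjusted p = 0.22), 0.57 in YFP+ over unstimulated (-0.04 to 1.18, limma adjusted p = 0.099) and 0.14 in YFP+ over YFP- samples (-0.48 to 0.75, limma adjusted p = 0.77). Leaving out m3 brought YFP+ over unstimulated past the test (0.83, limma adjusted p = 0.037), as did median centring (0.69, limma adjusted p = 0.019) and trimmed-mean scaling (0.70, limma adjusted p = 0.049). Of the 20 alternative settings, 14 kept this difference on the same side of the threshold as reported. Over the alternative settings the difference of YFP+ over YFP- samples ran from -0.09, without f2, to 0.49. Its lowest limma adjusted p among them was 0.041, which passed the test, and 18 of the 20 settings kept the result as reported.

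Levels of different genes were compared per kilobase of exon. In unstimulated samples the order was Gzma (8552 ± 769 CPM per kilobase, SD, n = 4), Gzmb (4294 ± 497), Gzmc (2425 ± 472) and Prf1 (990.3 ± 229), followed by Gzmd and Gzme, which overlapped, and by Gzmk, Gzmf and Gzmm. In YFP- samples it was Gzmb (8948 ± 633), then Gzmc (4604 ± 470.0) and Gzma (4456 ± 573), which overlapped, and Prf1 (1325 ± 286). In YFP+ samples it was Gzmb (16774 ± 2124), then Gzmc (5460 ± 777) and Gzma (4386 ± 385), which overlapped, and Prf1 (1552 ± 690.1). Gzmk stood above Gzmf in unstimulated samples and below it in both stimulated groups, where Gzmk and Gzmm overlapped. No rank changed with transcript length in place of exon length or with TPM, a level per transcript length scaled to a common total.

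Of the summed CPM per kilobase of the 9 genes, Gzma held 49.4 to 53.9% and Gzmb 24.7 to 28.2% in unstimulated samples. In YFP- samples Gzma held 20.1 to 23.3% and Gzmb 43.1 to 48.8%, and in YFP+ samples they held 13.7 to 16.3% and 54.4 to 61.9%. The Gzmc share was 11.8 to 16.9%, 20.6 to 24.2% and 17.1 to 21.2% in the 3 groups, and that of Prf1 4.54 to 6.55%, 5.92 to 8.39% and 3.29 to 6.70%. Together the 9 genes took 1.68 to 2.20% of all reads without stimulation, against 2.35 to 2.76% for YFP- and 3.41 to 4.61% for YFP+ libraries.

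**Figure D4:**
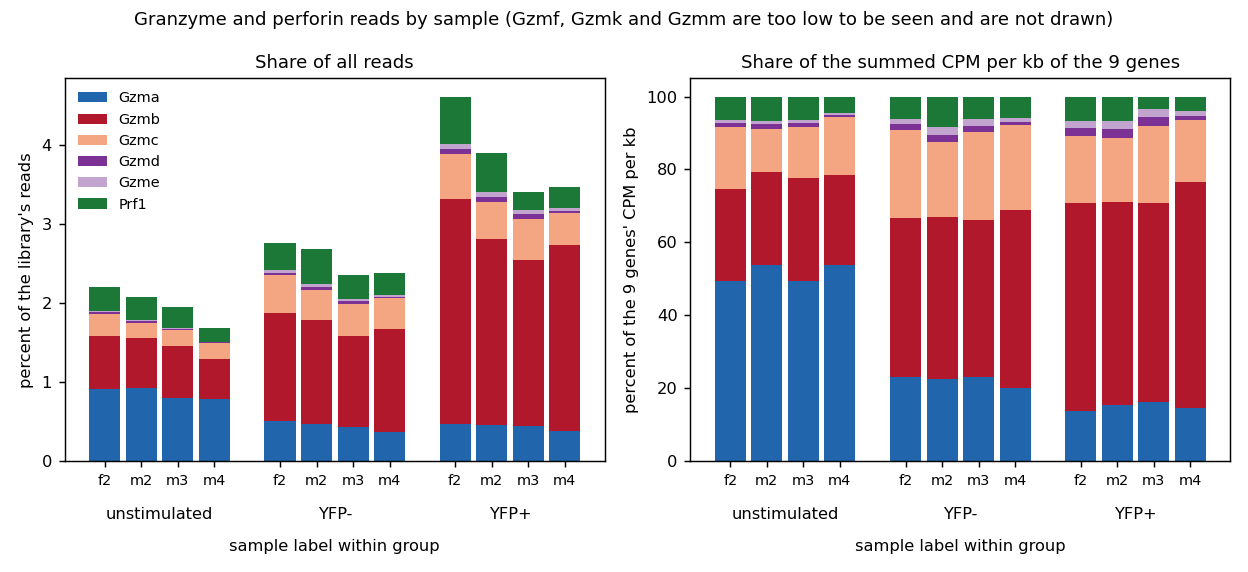
Stacked bars for each sample of the share of all reads (left, percent of the library) and of the summed CPM per kilobase of the 9 genes (right, percent) held by Gzma, Gzmb, Gzmc, Gzmd, Gzme and Prf1, by sample label and group. The Gzmb part widens and the Gzma part narrows from unstimulated to YFP- to YFP+ samples on the right.

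The genes whose log2 CPM followed each member most closely over the 12 samples were taken from 8110 genes outside the 9 that were tested and had a mean log2 CPM of at least 2. These correlations are descriptions over samples that share 3 conditions. Gzmb was most like Mydgf (Pearson r = 0.993), Mphosph6 (0.992) and Rabggtb (0.992), and Gzma most like Creb3l1 (0.987), Tuba4a (0.986) and Grhpr (0.984). Of the genes outside the 9, Gzmg was nearest to both Gzmd (0.967) and Gzme (0.975), with which it could share reads. Mydgf was nearest to Gzmf (0.954), Mrpl2 to Gzmc (0.967), Nckap1l to Gzmk (0.969), Ubash3b to Prf1 (0.984) and Upp1 to Gzmm (0.927). Among the members, Gzmd and Gzme were the most alike pair (r = 0.973), and Gzma was most like Gzmk (0.903).

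Genes that load, process or guard against granule proteases were called in both directions after stimulation, and those that changed most were higher. Of 15 listed, 14 were tested: 8 rose and 2 fell in YFP- over unstimulated samples (median 0.55) and 7 rose and 3 fell in YFP+ over unstimulated samples (median 0.46). Beside these, 30.2% of all genes were called higher and 20.9% lower in the first comparison (median 0.14). In the second, 27.5% were called higher and 33.3% lower (median -0.03). Srgn, the serglycin core protein that binds granzymes in granules, rose by 2.02 and 2.06 in log2 CPM. Ctsl, a lysosomal cathepsin, rose by 3.36 and 3.30, from a low mean log2 CPM of -0.39 without stimulation to 2.97 and 2.91. The granzyme B inhibitor gene Serpinb9 rose by 2.49 and 2.18, its relative Serpinb9b by 2.26 and 2.18, and Serpinb6b by 1.51 and 2.06. Between YFP+ and YFP- samples 2 rose, Nkg7 by 0.64 and Serpinb6b by 0.55, and 2 were lower, Ctsw (-0.80) and Serpinb6a (-0.53) (largest limma adjusted p of the 4 = 0.017). Beside them, 3.28% of all genes were called higher and 18.5% lower. Ctsc, the cathepsin that trims granzyme precursors, passed the test in no comparison (0.56, 0.40 and -0.16).

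Genes of granule exocytosis moved in both directions. Of 12 tested, 3 rose and 5 fell in YFP- and 2 rose and 6 fell in YFP+ over unstimulated samples, and the 4 genes called in YFP+ over YFP- samples all fell, with medians of -0.21, -0.50 and -0.48. Over all genes the shares called higher and lower were 30.2 and 20.9%, 27.5 and 33.3%, and 3.28 and 18.5%. In YFP+ over YFP- samples 2 of the 12 were lower and none higher with median centring, and 1 was higher and 1 lower with the GC and length correction. Stx11, a syntaxin required for granule fusion, rose by 1.60 in both stimulated groups, and Sytl3 by 1.48 and 1.49. Lyst, which controls lysosome and granule size, was lower (-2.11 and -2.96), as was Sytl1 (-1.40 and -2.30). Sytl2, whose product binds Rab27a, was lower in YFP- (-0.64) and YFP+ over unstimulated (-1.96) and in YFP+ over YFP- samples (-1.32), where Sytl1 (-0.90), Lyst (-0.85) and Vamp8 (-0.64) were lower too. Stx7 rose by 0.67 in YFP- over unstimulated samples.

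Several other effector genes of NK cells changed more than any of the 9 genes. Of 8 tested, 7 rose in YFP- (median 3.97) and 6 in YFP+ over unstimulated samples (median 5.57), with none called lower. Of all genes, 30.2% and 27.5% were called higher in these comparisons, and 20.9% and 33.3% lower. In YFP+ over unstimulated samples Ccl3 rose by 7.22, Xcl1 by 7.08 and Ccl4 by 6.18, all chemokine genes, and Tnf rose by 4.95. In YFP+ over YFP- samples 5 were higher, among them Ifng, the gene the sort rests on, and Tnfsf10, encoding the death ligand TRAIL, was lower (-1.01). The shares of all genes called higher and lower there were 3.28 and 18.5%. Fasl, which encodes the other death ligand, was called in no comparison (0.39, -0.18 and -0.56).

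Among 16 transcription factor genes known to act on granzyme or perforin genes, 7 rose and 5 fell in YFP- over unstimulated samples, 4 rose and 10 fell in YFP+ over unstimulated samples, and the 8 called in YFP+ over YFP- samples all fell. The medians were 0.09, -0.66 and -0.48. Of all genes, 30.2% were called higher and 20.9% lower in YFP- over unstimulated samples. The shares were 27.5 and 33.3% in YFP+ over unstimulated samples, and 3.28 and 18.5% in YFP+ over YFP- samples. Stat5a, a transducer of IL-15 signals, rose by 3.02 in YFP- and 3.27 in YFP+ samples, and Zeb2 by 2.89 and 2.72. Tbx21, encoding T-bet, rose by 1.28 in YFP- and by 1.34 in YFP+ samples. Lower were Prdm1, encoding Blimp-1 (-2.41 and -2.15), Nfil3 (-1.92 and -2.53) and, in YFP+ samples, Stat4 (-2.42). In YFP+ over YFP- samples Tcf7 (-2.80), Stat4 (-2.03), Bach2 (-1.85), Runx3 (-1.07) and Eomes (-0.78) were lower. With median centring 3 of the 16 were called higher and 7 lower in this comparison, and with the GC and length correction 4 and 7, and no gene called in these lists changed sign under any of the 20 alternative settings.

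**Figure D5:**
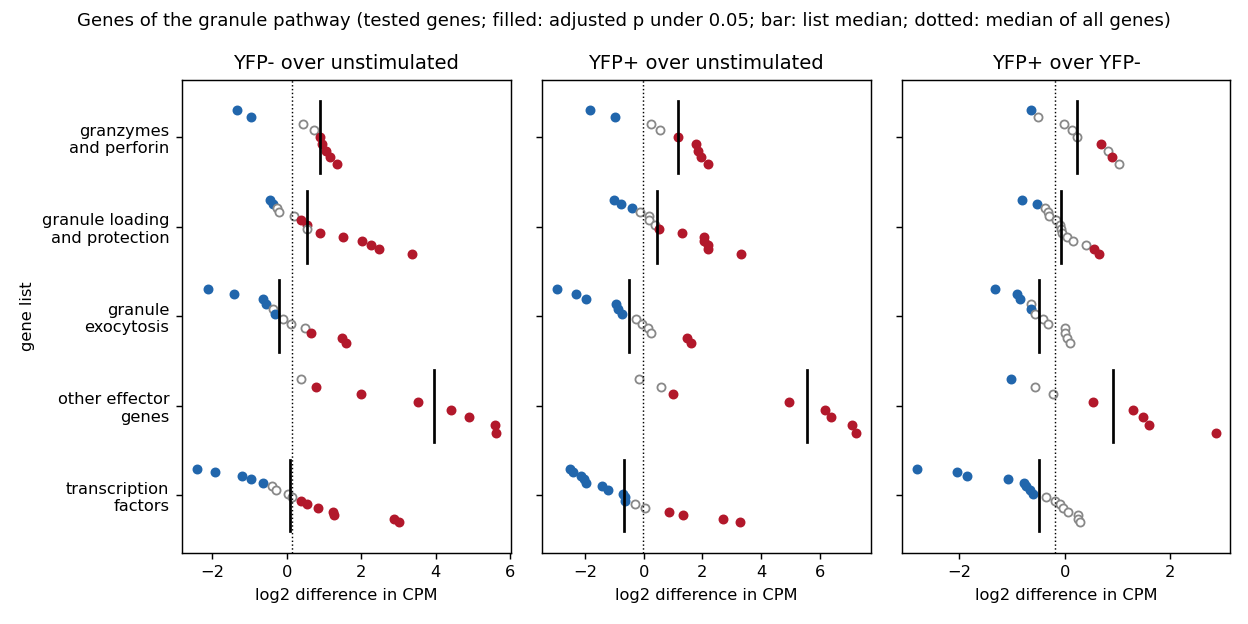
Log2 difference in CPM (x axis) of each tested gene of 5 lists (y axis) in the 3 comparisons, with filled points for an adjusted p under 0.05 (red higher, blue lower), the list median as a bar and the median of all genes as a dotted line. Other effector genes reach 7.22, while the granzyme and perforin genes stay between -1.82 and 2.18.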

How the data were processed

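Reads of 12 libraries, made from 10 ng of total RNA with a SMARTer kit and read as paired ends, were counted per gene by the authors, whose submitters' processing notes name bcl2fastq, STAR 2.7.9a, Subread, featureCounts 2.0.3 and GRCm38. Which settings were used is not given in the sources used here. The unit used here is moderated log2 CPM, in 1 table that the authors deposited with Ensembl identifiers, per the file headers. It has 55774 lines, and 287 repeated ones were left out. Whole reads were recovered from the values for 100.0% of them (within 0.01 of a whole number, prior 0.517 reads), with library totals. There were 0 value columns of no sample. Positions are from GENCODE M21 (99.5% of identifiers matched).

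Genes that 4 or more samples held at a log2 CPM above 0 were fitted over all 12 samples in limma 3.58.1 (R 4.3.3), with 1 coefficient per group and a trend, and called at an adjusted p under 0.05. Fold changes are on the moderated scale, which understates changes of low genes. The fit was tested on simulated data. Floors of 3 reads cover counting error only. Upstream sequences are from RefSeq (GRCm38.p6). Transcripts were compared in place of proteins, for which no table was used here. Other steps used Python 3.11.15, pandas 2.3.3 and Biopython 1.88.

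The genes named are the 9 members, for each of 6 companion lists at most 5 called genes per comparison by size of change, and the genes most like each member. Gm4022, Esm1, Gzmn, Mcpt8, Cma1, Ctsc, Fasl and the marker genes were named after their values were seen. The members and lists were chosen with earlier results of these data known. Alternatives were the replicate block, other filters, a pseudocount, 5 other scalings or totals, voom weights, no trend, a GC and length correction, other thresholds and leaving out each label. 2 of them, the wider rRNA list and the filter of 1 read in any sample, were chosen after seeing the data.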

Additional observations from a re-analysis of the deposited data

Results flagged for a closer look

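In 3 of the 27 sets of 4 samples formed by the 9 genes and 3 groups, the lowest sample lay far from the other three, with a gap whose share of the set's range was above Dixon's 95% critical value, which chance passes in about 1 of 20 sets. All 3 were m4 samples. In YFP+ cells Gzmd was at a log2 CPM of 8.28 in m4 and at 9.30 to 9.44 in f2, m2 and m3, a gap of 0.879 of the range. Gzme was at 8.15 in m4 and at 9.15 to 9.28 in the others, a gap of 0.893. In unstimulated cells Gzme was at 5.67 in m4 and at 6.98 to 7.20 in the others, a gap of 0.853. Gzmg, which lies between Gzmd and Gzmf, was also lowest in m4 in each group, at 4.44, 7.61 and 12.8 CPM in unstimulated, YFP- and YFP+ samples.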

How the results depend on the processing

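The 27 differences of the 9 genes were recomputed under 20 alternative settings (537 values, since Gzmm did not pass the filter at log2 CPM above 2). Of these, 474 kept their direction and their side of the threshold, 34 no longer passed, 23 passed only in the alternative and 6 changed sign, and 10 differences were stable under every setting run. The sign changes all concern YFP+ over YFP- samples: Gzma was 0.244 with median centring, 0.082 with the GC and length correction, and 0.135 and 0.136 with trimmed-mean scaling without and with voom weights, and its values without 1 label ran from -0.037 to 0.010, while those of Prf1 ran from -0.089 to 0.308. The count of the 9 genes called in YFP+ over YFP- samples, 3 as reported, was 5 with median centring, 1 with an adjusted p under 0.01, 1 with at least 1 read in any sample, and 0 with a log2 difference of at least 1. Without any filter it was 0 in limma (3 at an unadjusted p under 0.05). With voom weights and trimmed-mean scaling, over the filtered genes, it was 3. Without 1 label it ran from 1 (without f2, m2 or m3) to 3 (without m4). In YFP- over unstimulated samples, 7 as reported, it was 4 without any filter and 4 with a log2 difference of at least 1. The latter threshold left out Gzma (-0.95), Gzmc (0.94) and Gzmm (0.89), whose differences are smaller than 1 in size. With only the features without a read left out it was 7, and the cause of the drop without any filter was not tested. Without any filter the table held features of zero variance. Over all genes, the calls higher made up 15.1% in YFP+ over YFP- as deposited, 44.9% with quantile normalization, 50.2% with median centring and 37.8% with trimmed-mean scaling. With the wider rRNA-like features out of the totals, 47.1% were higher in YFP- over unstimulated samples, beside 59.1% as deposited. Of the granule loading list, 4 genes were higher and 1 lower in YFP+ over YFP- samples with median centring, beside 2 and 2 as deposited.

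Samples with the same label were not known to be paired. The correlation of same-label deviations was 0.054 to 0.374 for YFP+ with YFP-, -0.042 to 0.375 for YFP+ with unstimulated and -0.059 to 0.100 for YFP- with unstimulated samples, and 3, 2 and 1 of 4 samples correlated best with their own label. With the replicate block, 5 of the 9 genes were called in YFP+ over YFP- samples, with Gzmd and Gzme added, and 3098 of all genes in place of 2691. In the comparisons with unstimulated samples it called 8 each, with Gzmd added in YFP- and Prf1 in YFP+ samples. The number of samples, 4 a group, and for Gzmf, Gzmk and Gzmm the depth of 47 to 517 reads, limit the precision.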
